A study of Mus musculus with 51 samples.

Results

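The acetylation of histone H3 at lysine 9 (H3K9ac) was compared between germ cells of B6-Prdm9CAST-KI mice (KI) and of C57BL/6J mice (B6). The comparison was chosen by library: the 2 KI and the 3 B6 libraries of the H3K9ac count table, which are 5 of the 7 H3K9ac libraries and of the 51 samples of the series. Across the series, male mouse germ cells were profiled by ATAC-seq, histone ChIP, HELLS ChIP and DMC1 ChIP. All 5 libraries came from males aged 12 to 14 days after birth, from cells enriched for germ cells, with 1 antibody lot. The KI strain carries the CAST form of Prdm9 on the C57BL/6J background, and the B6 strain its own form. Whether KI animals carried 1 or 2 copies of the CAST form, and whether the libraries came from separate animals, is not given in the labels, so that a p-value covers the spread among these 5 libraries alone, and that spread may be technical. The labels give no replicate numbers, and the numbers used here only name the libraries.

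PRDM9, a histone methyltransferase with zinc fingers, is made in early meiotic prophase and chooses where recombination starts. It binds a DNA sequence set by its zinc fingers and marks the nucleosomes beside it with H3K4me3 and H3K36me3, after which SPO11 cuts the DNA there and DMC1 coats the broken ends. Prdm9 alleles differ in their zinc fingers and therefore bind different places. H3K9ac is a mark of open chromatin that is laid down by acetyltransferases such as GCN5 and is best known from active promoters and enhancers. HELLS is a chromatin remodeller of the SNF2 family that works with PRDM9 at hotspots.

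The DNA at the centre of the changed regions is shown first, since the classes differed in it. From ATAC regions without a promoter on autosomes with odd numbers, a motif of 24 bases was learned for regions more open in KI. Another was learned for regions more open in B6 that also held a DMC1 peak of Hells heterozygotes. Neither used H3K9ac. The letters found in at least 60% of the matches, with N for any base, were these.
KI motif: GNCTNGGNNTNTGNCNNTT
B6 motif: GGNAGNANCNNC
The central 200 bases of the ATAC region at 3 named sites are given from the mm10 genome, plus strand, with the motif match in capitals. They were picked for their match out of 6 sites looked at, and the other 3, the KI site on chromosome 17 and the hotspots on chromosome 6 and in Myt1, had none in this window. Both KI sites are on chromosomes used in learning, and the B6 site is not.
KI site at chr19:60375945-60376144, intergenic, KI motif on the plus strand: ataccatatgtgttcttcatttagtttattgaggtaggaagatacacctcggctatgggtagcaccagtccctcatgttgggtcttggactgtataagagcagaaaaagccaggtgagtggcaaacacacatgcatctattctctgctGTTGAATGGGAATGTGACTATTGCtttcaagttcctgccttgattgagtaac
KI site at chr13:118408635-118408834, intergenic, KI motif on the minus strand: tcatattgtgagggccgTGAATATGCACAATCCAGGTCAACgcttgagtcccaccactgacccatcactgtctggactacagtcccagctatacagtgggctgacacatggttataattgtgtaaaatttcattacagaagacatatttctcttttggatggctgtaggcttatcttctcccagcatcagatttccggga
B6 hotspot at chr8:129270177-129270376, exon of Gm32856, B6 motif on the plus strand: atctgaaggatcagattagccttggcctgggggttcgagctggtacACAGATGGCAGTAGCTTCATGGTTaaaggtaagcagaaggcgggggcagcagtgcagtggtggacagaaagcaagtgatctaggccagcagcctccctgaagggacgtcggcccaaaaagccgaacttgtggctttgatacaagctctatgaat
The same search in the central 300 bp of named H3K9ac regions gave the matches below. Those on chromosomes 17 and 19 lie on chromosomes used in learning, and the others do not. Each is printed 5′ to 3′ in the direction of the motif, with capitals where it has the letter of the motif.
KI motif, intergenic, chr17:93981339-93981362, plus strand: agttgCTgGGaaTgTGaCcaTTcc
KI motif, intron of Gfra1, chr19:58364819-58364842, plus strand: actGcCTtGacaTgTGaCtccccc
KI motif, promoter region of Olfr351, chr2:36860216-36860239, minus strand: cttGaCTgGGaaTgTGctcaTTat
KI motif, promoter region of Tssk2, chr16:17898370-17898393, plus strand: tgaGaCTgGaccTgTacCgcTTct
KI motif, promoter region of Prm2 and Prm3, chr16:10791494-10791517, plus strand: gttGctTgGGcaggTGaCtaTTcc
KI motif, promoter region of Vwf, chr6:125552356-125552379, plus strand: aaaGaCTtaGacTgTGaCcagTgc
B6 motif, intron of Nrp1, chr8:128373027-128373050, plus strand: cgctttGacAGtAtCagCtggtgt
B6 motif, exon of Myt1, chr2:181812217-181812240, minus strand: caacagGatAGtAtCtcCttcttc
B6 motif, promoter region of Mfsd4b4, chr10:39895208-39895231, minus strand: ttcactGGtAGtAgCagCatgtgg
A match is a description of the DNA and not of binding.

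The table held 91909 regions. The regions summed to 30233934, 15058790 and 29242297 counts in B6 replicates 1, 2 and 3, and to 23516006 and 17067786 in KI replicates 1 and 2. B6 replicate 2 stood apart from the other B6 libraries. Over the 72789 regions with at least 50 counts on average, the chi-square statistic per region, which is 1 for counting noise alone, was 3.3 between B6 replicates 1 and 3 and 3.45 between the KI libraries. It was 25.7 between B6 replicates 1 and 2 and 24.7 between B6 replicates 2 and 3. Between KI and B6 libraries it ran from 34.2 to 81.1, lowest for B6 replicate 2 with KI replicate 1. Sample descriptions carry library numbers that run on from B6 replicate 2 to 3 and from KI replicate 1 to 2. What these numbers mark is not stated, no run of them holds both strains, and strain and library run cannot be told apart.

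With all 5 libraries, many regions were called higher in H3K9ac in KI and few lower. How few were lower rested on B6 replicate 2, as given below. Of 91794 regions tested, 12826 were higher in KI, which is 14.0% (edgeR quasi-likelihood test, Benjamini-Hochberg adjusted p under 0.05). Only 159 were lower, which is 0.173%. Both KI libraries lay above all 3 B6 libraries in 25288 regions (27.5%) and below all 3 in 12811 (14.0%). The median fold change of all regions was −0.01 on the log2 scale. At the regions called higher, the median level was 0.458, 1.52 and 0.527 CPM (counts scaled to a common library size with TMM factors) in B6 replicates 1 to 3 and 10.3 and 11.9 CPM in the KI libraries. At the regions called lower, the median level was 10.2, 13.9 and 11.0 CPM in B6 and 4.55 and 4.995 CPM in KI. The gains were thus regions with little signal in B6, and the losses were partial: the median log2 fold change was 3.78 at the former and −1.18 at the latter, which the calls themselves chose.

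How many regions passed hung on single libraries. Without B6 replicate 2, 26988 were higher (29.4%) and 23258 lower (25.4%). Without B6 replicate 1 the counts were 7517 and 45, and without B6 replicate 3 they were 2520 and 0. With either KI library left out, no region passed in edgeR, with 14146 regions at an unadjusted p under 0.05 without KI replicate 1 and 12643 without KI replicate 2. These fits assume that the lone KI library varies like the B6 libraries. DESeq2 on the same libraries called 9492 higher and 157 lower without KI replicate 1, and 8584 higher and 272 lower without KI replicate 2. All 12985 regions called with the 5 libraries were also called without B6 replicate 2.

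Sites that were more open in KI carried the clearest gain. ATAC-seq, which reads open DNA by the insertion of adapters, was tested between other libraries of the same strains, and 5596 H3K9ac regions overlapped an ATAC region that was higher in KI. Of these, 5281 were higher in H3K9ac (94.4%) and 0 lower, against 14.0% higher among all regions. The class median was 0.622, 2.23 and 0.758 CPM in B6 replicates 1 to 3, and 20.3 and 23.3 CPM in KI replicates 1 and 2. The groups did not overlap, and the means were 1.202 ± 0.889 CPM (SD, n = 3) and 21.8 ± 2.14 CPM (SD, n = 2). An exact permutation test over the 5 libraries gave p = 0.1, two-sided, the smallest that 3 against 2 libraries allow. The median log2 fold change was 4.18, with quartiles of 3.30 and 4.87, and 5526 regions (98.7%) had both KI libraries above all B6 libraries. Per kilobase, B6 replicates 1 to 3 had 0.311, 1.07 and 0.371 CPM at these sites, against 2.81, 2.98 and 2.87 CPM over all regions. B6 had less acetylation there than at a typical region, and B6 replicate 2 had more than the other B6 libraries. Without B6 replicate 2, 5507 of the class were higher and 17 lower, with a median of 4.90. Without B6 replicate 3, 1585 were higher, and with either KI library left out 0 passed.

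**Figure D1:**
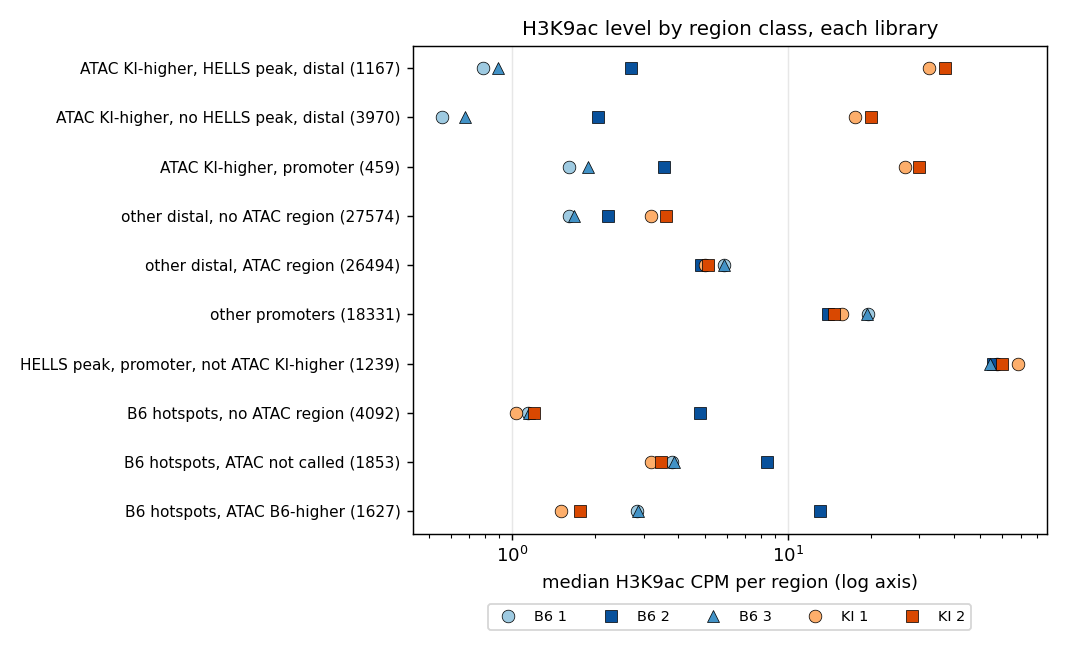
Median H3K9ac level of each region class (number of regions in parentheses) in each library, in CPM on a log axis. Circles, squares and triangles are replicates 1, 2 and 3, blue for B6 and orange for KI. At sites more open in KI the orange points lie far to the right of all blue ones, and at B6 hotspots the dark blue square of B6 replicate 2 lies apart from the other 4 points.

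Named KI sites repeated this pattern in every library. The intergenic region chr17:93979736-93982822 held 7, 31 and 9 counts in B6 replicates 1 to 3, and 967 and 839 counts in the KI libraries. This is 0.229, 1.82 and 0.297 CPM against 45.3 and 53.1 CPM, with a log2 fold change of 6.15 ± 0.822 (SE) and an adjusted p of 0.00785 in edgeR. It also holds a HELLS peak. In an intron of Gfra1, which encodes the GDNF co-receptor of spermatogonial stem cells, chr19:58363317-58366242 held 11, 40 and 12 counts in B6 and 1021 and 884 in KI. Its log2 fold change was 5.80 ± 0.803 (SE), with an adjusted p of 0.00861 in edgeR. At the intergenic region chr19:60374746-60377477, whose centre is printed above, B6 had 15, 38 and 18 counts and KI 651 and 544. No HELLS peak lay there, and its log2 fold change was 4.97. The 6 sites named by ATAC ran from 4.90 to 6.15, and in all 6 both KI libraries lay above all B6 libraries. A region in an exon of Bicd1, a dynein adaptor, which also holds UTR, had 26, 30 and 27 counts in B6 and 802 and 705 in KI. In it B6 replicate 2 stood least apart, and its adjusted p was 0.00302 in edgeR, the lowest of the 6. Of 46 regions and promoters named in all, 38 were called. All 38 lost the call without KI replicate 1 and without KI replicate 2, 30 lost it without B6 replicate 3 and 11 without B6 replicate 1, and none reversed its direction.

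**Figure D2:**
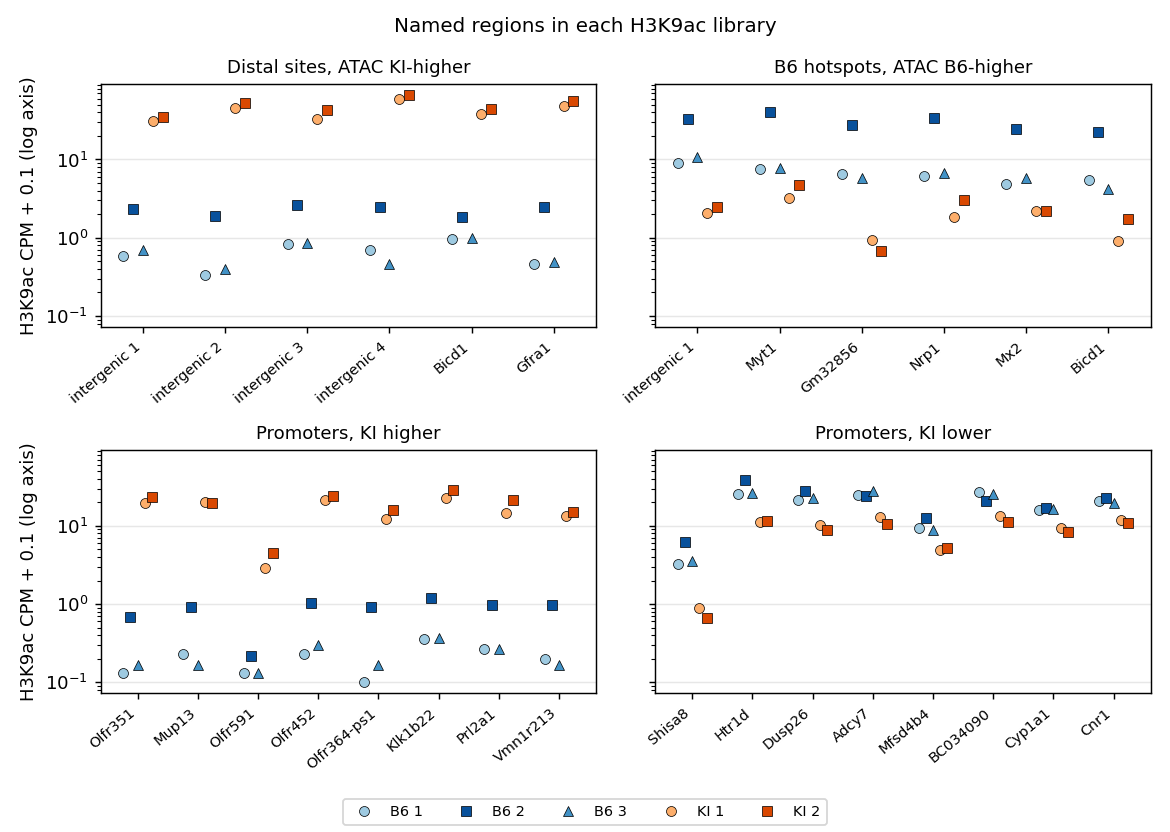
H3K9ac level of named regions in each library, in CPM plus 0.1 on a log axis. Blue symbols are B6 replicates 1 to 3 and orange symbols KI replicates 1 and 2. The KI-higher sites and promoters split into 2 bands with B6 replicate 2 on top of the lower one, and at the 6 hotspots B6 replicate 2 lies above all other libraries.

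H3K9ac was higher at sites that were more open in KI. Distal regions (no promoter within 1000 bp of an annotated start) with a KI-higher ATAC region were split into 4 equal groups by their KI ATAC level. Medians per kilobase in KI replicate 1 were 7.27, 8.69, 10.1 and 12.1 CPM from the least to the most open group, and in KI replicate 2 they were 8.44, 10.1, 11.7 and 13.9 CPM. The level in B6 was higher in the more open groups too, from 0.233 to 0.366 CPM per kilobase in B6 replicate 1, from 0.952 to 1.14 in B6 replicate 2 and from 0.278 to 0.440 in B6 replicate 3. ATAC and H3K9ac share the strain and the region here, and no test was made of the trend. Sites with a HELLS peak, as called in KI testis, were the more acetylated ones in KI. The 1167 distal KI-higher sites with a HELLS peak had a median of 12.1 and 13.9 CPM per kilobase in the KI libraries, and the 3970 without one had 8.69 and 9.99 CPM per kilobase. In B6 the values of both kinds were close, at 0.294, 1.03 and 0.355 against 0.296, 1.06 and 0.355 CPM per kilobase. Of the former 1143 were higher in KI (97.9%) and of the latter 3743 (94.3%), against 14.0% of all regions. None was lower in either, and the median log2 fold changes were 4.67 and 4.12. The difference between the kinds was not tested. Among distal regions with a HELLS peak, KI replicate 1 had 10.6 CPM per kilobase in the group of 308 regions with the fewest HELLS counts and 14.0 in the group of 308 with the most.

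Single HELLS sites gave the same picture with 1 exception. In an exon of Trpm6, a magnesium channel, chr19:18791761-18796009 held 22, 55 and 13 counts in B6 and 1103 and 933 in KI (log2 fold change 5.37 ± 0.802 SE, adjusted p of 0.0105 in edgeR). HELLS ChIP gave 355 and 205 counts there, against 7 in the IgG control and 16 in the input. In an exon of Epg5, an autophagy gene, B6 had 152, 117 and 131 counts and KI 1253 and 1138, with a log2 fold change of 3.61. An intergenic region at chr19:37262894-37266458 already carried 17.6, 23.1 and 22.8 CPM in B6 and had 73.99 and 82.3 CPM in KI, a log2 fold change of 1.89. The exception was the site with most HELLS counts, on chromosome Y, where IgG and input were high too, at 188 and 360 counts against 566 and 518 in HELLS ChIP. Its H3K9ac was 67.5, 62.2 and 78.0 CPM in B6 and 110 and 73.8 CPM in KI, where KI replicate 2 lay below B6 replicate 3.

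At promoters a HELLS peak alone went with few calls in the fit of 5 libraries. Of the 1239 promoter regions with a HELLS peak but no KI-higher ATAC region, 26 were higher in KI and 0 lower. This 2.10% of higher calls stood against 14.0% of all regions and 2.6% of promoters without a DMC1, HELLS or ATAC call. Their median was 57.6, 55.8 and 54.1 CPM in B6 and 68.3 and 59.9 CPM in KI, with a median log2 fold change of 0.21. When B6 replicate 2 was left out the median was the same, but 479 were higher (38.7% against 29.4% of all regions). In the same fit 89 were lower (7.18% against 25.4%). Of promoters without a DMC1, HELLS or ATAC call, 19.2% were then higher and 31.8% lower. These were strongly acetylated promoters in both strains. Of the 142 promoter regions with both a HELLS peak and a KI-higher ATAC region, 124 were higher (87.3%). Their median went from 3.68, 4.86 and 3.82 CPM in B6 to 40.5 and 44.9 CPM in KI over all 142.

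Many gains lay outside the open sites. Of the 12826 regions higher in KI, 6469 (50.4%) were distal, held no DMC1 or HELLS peak and overlapped no region of the ATAC table at all. Under the other settings with all B6 and KI libraries this share ran from 44.4% to 53.1%, and without B6 replicates 1, 2 and 3 it was 40.2%, 47.7% and 31.7%. KI-higher ATAC sites held 41.2% of the gains, and 53.9% and 62.9% of the fewer gains found without B6 replicates 1 and 3. Of the 26988 gains found without B6 replicate 2 they held 20.4%. The tested distal regions with no DMC1 or HELLS peak and no ATAC region numbered 27493. Of these, 23.5% were higher and 7 (0.0255%) lower, against 14.0% and 0.173% of all regions. This class is meant below by distal regions without an ATAC region. The called ones had a median of 0.327, 1.11 and 0.363 CPM in B6 and 6.24 and 7.21 CPM in KI, which is a weaker mark than at the open KI sites. Distal regions with no DMC1 or HELLS peak whose ATAC regions were not called in either direction were rarely called with all 5 libraries. Of 26494, 432 were higher (1.63%) and 6 lower (0.0226%), against 14.0% and 0.173% of all regions. With B6 replicate 2 left out, 2801 of them were higher (10.6%) and 10611 lower (40.1%), against 29.4% and 25.4% of all regions. By chromatin state, a deposited segmentation of the genome computed from marks that included B6 replicates 1 and 3, 6488 of the 12826 gains (50.6%) lay in state 11. Of all regions of that state 72.3% were higher and none lower, against 14.0% and 0.173% of all regions tested. The median of the state was 0.360, 1.41 and 0.461 CPM in B6. Since the segmentation used B6 H3K9ac, this state is not independent of the level in B6. By chromosome, the share of regions higher in KI ran from 11.4% of regions on chromosome 10 to 15.8% on chromosome 6, with 15.6% on chromosome X.

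**Figure D3:**
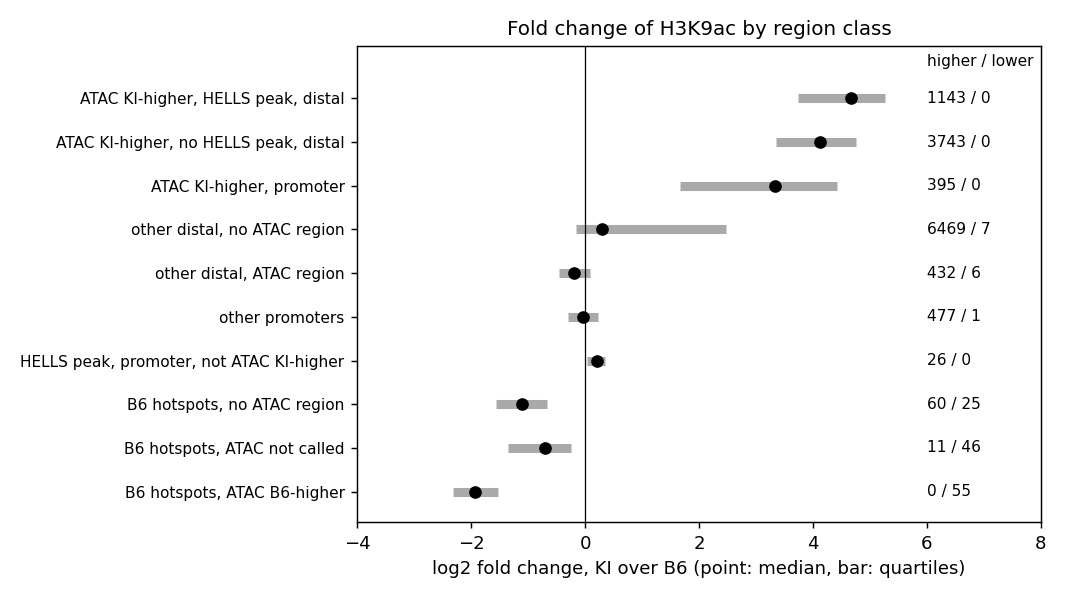
Median (point) and quartiles (bar) of the log2 fold change of H3K9ac, KI over B6, in each region class, with the number of regions called higher and lower at the right. The 3 classes more open in KI lie between 3.33 and 4.67, the bar of distal regions without an ATAC region reaches from −0.15 to 2.48, and the hotspot classes lie below 0.

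These gains without an ATAC region held the KI motif as often as the open sites did. The motif was looked up in regions of chromosomes that had no part in learning it, where 15.1% of all regions had a match in their central 300 bp. Among distal KI-higher ATAC sites 1644 of 2431 regions had one (67.6%). Among the distal regions without an ATAC region, as defined above, 2222 of the 3210 called higher in H3K9ac had one (69.2%). Of the 9806 that did not pass, 1038 had one (10.6%). Distal regions with only uncalled ATAC regions and no DMC1 or HELLS peak had lower shares. These were 42.2% of the 230 higher regions and 5.39% of those that did not pass. At promoters with no DMC1, HELLS or ATAC call, 57% of 228 higher regions had a match and 4.02% of those that did not pass. The B6 motif was found in 3.46% to 5.5% of KI-higher ATAC sites, distal and promoter, and in 7.68% of all regions. Sites with a HELLS peak and without one had the KI motif alike, at 69.5% and 67.1%. Matches sat at the middle of the regions. Of distal KI-higher ATAC sites, 16.9% had their best match in the 50 bp before the middle and 17.6% in the 50 bp after it, but 0.823% between 400 and 350 bp before. Gains without an ATAC region had 18.6% and 17.2% in the same central bins, against 2.28% and 2.09% of the regions that did not pass.

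**Figure D4:**
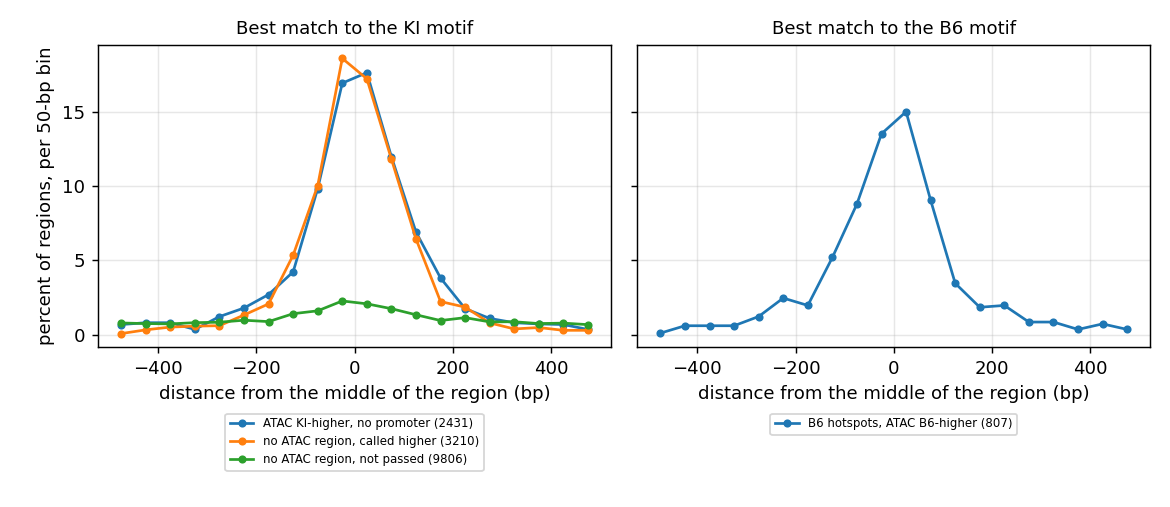
Percent of regions with their best motif match in each 50-bp bin, by distance from the middle of the region in bp, on chromosomes not used in learning. Left, the KI motif in sites more open in KI, in gains without an ATAC region and in regions without an ATAC region that did not pass; right, the B6 motif in hotspots more open in B6. The first 2 lines on the left rise to between 16.9% and 18.6% at the middle, and the line of regions that did not pass reaches 2.28%.

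Hotspots of the B6 allele lay lower in KI, but their level in B6 differed widely between libraries. A hotspot here is a region with a DMC1 peak of testis of Hells heterozygotes, aged 6 weeks and so older than the H3K9ac animals, and no promoter, and such hotspots are taken as those of the B6 form. There were 7749, of which 7720 were tested: 126 were lower and 199 higher. This 1.63% of lower calls stood against 0.173% of all regions, and 2.58% of higher calls against 14.0%. The median log2 fold change was −1.19 against −0.01. The median level was 1.77, 6.62 and 1.78 CPM for B6 replicates 1 to 3, and 1.36 and 1.58 CPM in the KI libraries. Both KI medians lay below all B6 medians, but B6 replicates 1 and 3 stood nearer to KI than to B6 replicate 2. The means were 3.39 ± 2.80 CPM (SD, n = 3) and 1.47 ± 0.156 CPM (SD, n = 2), and the exact permutation p over libraries was 0.5, two-sided. Without B6 replicate 2 the median log2 fold change was −0.30, and 29.4% of hotspots were lower against 25.4% of all regions.

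At the hotspots that were more open in B6, KI lay lower than each B6 library. These were 1627 hotspots with a B6-higher ATAC region, of which 1626 were tested. Their median was 2.85, 13.1 and 2.87 CPM for B6 replicates 1 to 3 and 1.501 and 1.77 CPM in KI, with a median log2 fold change of −1.93. The exact permutation p over libraries was 0.5, two-sided, for these medians too. Both KI libraries lay below B6 replicate 1 in 86.8% of them, below B6 replicate 2 in 99.8% and below B6 replicate 3 in 88.1%. In 1359 (83.6%) both lay below all 3, against 14.0% of all regions. At the threshold 55 were lower (3.38% against 0.173% of all regions) and 0 higher (against 14.0%). Without B6 replicate 2, 64.7% were lower, against 25.4% of all regions, with a median log2 fold change of −0.86. The B6 motif was found in 54.5% of those on chromosomes not used in learning, and the KI motif in 4.71%. Hotspots with no ATAC region, 4064 of them tested, had 1.15, 4.80 and 1.15 CPM in B6 and 1.03 and 1.201 CPM in KI. There KI replicate 2 lay above B6 replicates 1 and 3, and without B6 replicate 2 the median log2 fold change was −0.09 and 12.2% were lower. The 177 hotspots that also held a KI-higher ATAC region went the other way, with 128 higher (72.3%) and 0 lower in KI. The Spo11/Spo11 library, of a mutant without the protein that cuts hotspots and left out of the fit, had 8.03 CPM at the hotspots more open in B6, between B6 replicate 2 and the other B6 libraries.

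The 6 hotspots named by ATAC show the spread. An intergenic one at chr6:145269009-145271522 held 270, 564 and 326 counts in B6 replicates 1 to 3 and 42 and 38 in KI. This is 8.83, 33.0 and 10.8 CPM against 1.97 and 2.40 CPM, with a log2 fold change of −3.0 ± 0.720 (SE) and an adjusted p of 0.0493 in edgeR. In an exon of Gm32856, chr8:129268999-129271370 had 195, 474 and 173 counts in B6 and 18 and 9 in KI, a log2 fold change of −4.19 ± 0.986 (SE) with an adjusted p of 0.0459 in edgeR. Both calls were lost with RLE factors, with library size alone, with factors from promoters and with the Spo11/Spo11 library in the fit, at adjusted p from 0.054 to 0.0745. The other 4 did not pass in edgeR. In an intron of Nrp1, a semaphorin co-receptor, B6 had 187, 585 and 198 counts and KI 37 and 46. In an exon of Myt1, a zinc-finger factor of neural cells, B6 had 231, 685 and 231 counts and KI 67 and 74. In all 6 hotspots both KI libraries lay below every B6 library, and B6 replicate 2 was the highest. Both KI libraries lay below all B6 libraries in 83.6% of tested hotspots more open in B6 and in 14.0% of all regions.

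B6 replicate 2 also differed where no hotspot lay. Over 21447 tested promoter regions its median was 15.9 CPM, against 21.6 and 21.1 CPM in B6 replicates 1 and 3 and 18.8 and 17.6 CPM in KI. It had more signal than the other B6 libraries at hotspots, at sites more open in KI and at the gains without an ATAC region, and less at promoters. Whether this comes from the cells, the ChIP or the sequencing was not tested.

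Few promoters were called with all 5 libraries. Of the 21447 tested, 911 were higher in KI (4.25% against 14.0%) and 19 lower (0.0886% against 0.173%), with a median log2 fold change of 0.00. Leaving out B6 replicate 2, 4749 were higher (22.1%) and 6317 lower (29.5%), against 29.4% and 25.4% of all regions, and the median was −0.05. Of the higher ones 395 held a KI-higher ATAC region, where 86.1% of 459 promoter regions were higher. The 8 promoters of largest gain belong to multigene families, whose copies can share reads, so that the counts of single genes are uncertain. The promoter region of Olfr351, an olfactory receptor gene, held 1, 10 and 2 counts in B6 and 411 and 363 in KI, with a log2 fold change of 6.83 ± 0.813 (SE) and an adjusted p of 0.00605 in edgeR. At Mup13, a major urinary protein gene, the counts were 4, 14 and 2 in B6 and 432 and 306 in KI, a log2 fold change of 6.11. No ATAC region lay at Mup13, and Olfr351 had a KI-higher one. The other 6 promoters of largest gain were Olfr591, Olfr452, Olfr364-ps1, Klk1b22 (a kallikrein), Prl2a1 (of the prolactin family) and Vmn1r213 (a vomeronasal receptor), with log2 fold changes from 5.58 to 5.93. All 8 had both KI libraries above all B6 libraries, as did all 12826 regions called higher. A KI motif match was found in the central 300 bp of Olfr351, Mup13, Olfr591, Olfr452, Olfr364-ps1 and Prl2a1. Olfr591 and Prl2a1 lie on chromosomes used in learning. How far these genes are transcribed was not measured in the data used here.

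Of the 159 regions lower in KI, 144 (90.6%) held a DMC1 peak of Hells heterozygotes, against 10.1% of all regions tested, and so did 18 of the 19 lower promoter regions. This share rested on B6 replicate 2: without it, 2634 of the 23258 lower regions held one, which is 11.3%. The 8 promoters of largest loss all held one. The strongest was Shisa8, with 97, 106 and 104 counts in B6 and 17 and 9 in KI. This is 3.17, 6.21 and 3.43 CPM against 0.797 and 0.569 CPM, with a log2 fold change of −2.61 ± 0.445 (SE) and an adjusted p of 0.0154 in edgeR. Htr1d, a serotonin receptor gene, went from 25.3, 38.9 and 26.0 CPM in B6 to 11.1 and 11.5 CPM in KI (log2 fold change −1.41). Dusp26, a phosphatase gene, and Adcy7, an adenylyl cyclase gene, fell by 1.35 and 1.11 on the log2 scale. At Adcy7 B6 replicate 2 did not stand apart, with 24.4, 23.7 and 27.4 CPM in B6 against 12.9 and 10.4 CPM. BC034090, Cyp1a1 (a cytochrome P450 gene) and Cnr1 (a cannabinoid receptor gene) fell by 1.00, 0.90 and 0.90. Mfsd4b4 lay at the threshold, with a log2 fold change of −1.03, and lost its call under 4 settings besides those that leave out a library. The B6 motif was found at Shisa8 and Mfsd4b4 and not in the central window of the other 6. Shisa8 lies on a chromosome used in learning.

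Genes of meiosis did not pass the test singly, although many lay higher in both KI libraries. None of the 39 promoters of the list of meiotic prophase and recombination genes passed in either direction, where 4.25% of all promoters were higher and 0.0886% lower. Their median log2 fold change was 0.31, against −0.01 for all regions, and in 23 of 39 both KI libraries lay above all B6 libraries, against 27.5% of all regions. Their summed level was 1223, 1215 and 1174 CPM in B6 and 1463 and 1379 CPM in KI. The promoter of Prdm9, which shares its region with Gm6686, had 42.2, 67.3 and 41.7 CPM in B6 and 82.8 and 72.7 CPM in KI. Its log2 fold change was 0.63 ± 0.242 (SE), with an adjusted p of 0.208 in edgeR, and B6 replicate 2 lay near the KI libraries. Sycp1, of the transverse filament of the synaptonemal complex, had 27.4, 39.99 and 25.3 CPM in B6 and 49.2 and 43.1 CPM in KI, with an adjusted p of 0.222 in edgeR. It was named after its values were seen. Spo11, which makes the breaks, had 9.03, 13.5 and 10.7 CPM in B6 and 16.4 and 16.8 CPM in KI, with an adjusted p of 0.224 in edgeR. Hells had 55.3, 67.1 and 50.9 CPM in B6 and 77.9 and 67.2 CPM in KI, with an adjusted p of 0.293 in edgeR.

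Marker lists of other cells had medians nearer 0 or below it. Summed H3K9ac at 18 spermatogonial promoters was 728, 545 and 707 CPM in B6 and 658 and 584 CPM in KI, with a median log2 fold change of −0.19 and no call. At 17 Sertoli cell promoters it was 1086, 768 and 1001 CPM in B6 and 984 and 754 CPM in KI (median −0.09). At 7 Leydig cell promoters it was 144, 81.9 and 151 CPM in B6 and 97.1 and 91.2 CPM in KI (median −0.32), and none of these passed. In all 3 lists B6 replicate 2 lay below the other B6 libraries. Only 3 of 12 blood and macrophage genes had a region at their promoter. At 22 promoters of histone acetylation genes and 17 housekeeping promoters the medians were 0.07 and 0.09, with no call. Fewer cells of a type and less mark per cell cannot be told apart in these samples, and the part that cell make-up has in the results was not tested.

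Of 157 promoter regions of the lists, 3 passed (1.91%, against 4.25% of all promoters), all higher in KI, and at each the mark was near absent in B6. Tssk2, a kinase gene of spermatids, had 10, 15 and 14 counts in B6 and 200 and 173 in KI, with a log2 fold change of 4.25 ± 0.403 (SE) and an adjusted p of 0.00387 in edgeR. The region shared by Prm2 and Prm3, of the protamine cluster that packs sperm DNA, had 12, 25 and 23 counts in B6 and 135 and 113 in KI (log2 fold change 3.0, adjusted p of 0.0154 in edgeR). Vwf, the gene of von Willebrand factor of endothelial cells, had 8, 20 and 13 counts in B6 and 103 and 77 in KI. Its log2 fold change was 3.03, with an adjusted p of 0.0265 in edgeR, and its call was lost with library size alone and with factors from promoters. No other member of the pachytene and spermatid list passed, and none of the 18 promoters of the peritubular, stromal and endothelial list besides Vwf. All 3 regions lay in chromatin state 11, overlapped no ATAC region and held the KI motif match printed above.

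Among distal gains with no DMC1 or HELLS peak and no called ATAC region, those of largest fold had almost no counts in B6. An intergenic region at chr12:23358089-23359984 held 1, 1 and 0 counts in B6 and 349 and 319 in KI. The ratio of KI to B6 was 701, with a 95% interval of 193 to 5800 that covers counting error only. At chr7:14037268-14038697 the counts were 1, 2 and 0 in B6 and 162 and 145 in KI, a ratio of 215 with an interval of 72.8 to 1050. At chr12:115117714-115118413, B6 had 0 counts in all 3 libraries and KI 56 and 41, which is at least 67.9-fold higher when 3 counts over the B6 group are taken as the floor. At chr9:8530478-8531214 the KI libraries had 41 and 48 counts, at least 62.3-fold higher. All 4 held a KI motif match. Those on chromosomes 7 and 9 lie on chromosomes used in learning. Of all regions, 32 had at least 50 counts summed over KI and at most 3 over B6, and 29 the reverse. A median of 52.0% of bases in the former and 91.6% in the latter lay in repeats masked in the genome, against 17.5% over all regions. The losses of largest fold among distal regions of the same kind included an intergenic region at chr9:74354915-74355282. It had 63, 20 and 62 counts in B6 and 2 and 2 in KI. Another lay at chr16:33827867-33828643, and its call was lost under 3 settings. The others were an intron of Mboat2 and a region of Lzts2. The log2 fold changes of these losses ran from −3.96 to −1.59, and the B6 motif was found in the regions of Mboat2 and Lzts2. Lzts2 lies on a chromosome used in learning.

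The H3K9ac library of a (B6xCAST) F1 hybrid, which holds both Prdm9 alleles and both genomes, gave a further reading of the same regions. It is 1 library, with no replicate check, and only autosomal regions with at least 20 allele counts were used. Over all of these the median share of B6 allele counts was 51.6%. At 4499 distal KI-higher ATAC sites it was 59.8%, and at the 1121 of them with a HELLS peak 73.5%, against 57.1% at those without one. At hotspots more open in B6 it was 48.7%. Of these 1580 hotspots, 1297 had allele values at all and 832 reached the minimum. At hotspots with no ATAC region the share was 30.0%. Only 1249 of these 3987 had allele values at all, and 692 reached the minimum. Regions with many counts on either allele reach it more easily. At promoters the share was 51.1%.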

How the data were processed

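Libraries were ChIP of H3K9ac after MNase digestion of enriched germ cells, per the labels' protocols. The deposited tables hold raw counts of reads per region for H3K9ac, ATAC and HELLS. Allele values of the F1 hybrid are estimated counts in the deposited table and were already whole numbers. Of its columns, 12 were not used. The submitters' processing notes name CASAVA, BWA 0.7.15, Bowtie 0.12.9, MACS 1.4.2 and the build mm10. Which tool made which table, and how reads with several matches were handled, is not given in the sources used here.

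H3K9ac counts of 5 libraries entered the quasi-likelihood F test of edgeR 4.0.16 under R 4.3.3, after filterByExpr and with TMM factors. The p-values were adjusted over all regions tested by the method of Benjamini and Hochberg, with 0.05 as the threshold. The common biological coefficient of variation was 0.327. DESeq2 1.42.0, other scalings, no filter, the Spo11/Spo11 library added, and each library left out were alternatives. On simulated counts the fit gave the right sign for nearly all planted changes. None of the smaller ones and hardly any of the larger ones passed the threshold. A region that did not pass is therefore not shown to be unchanged. Region classes came from other files: ATAC of KI against B6 (the same test), DMC1 peaks of Hells heterozygotes, HELLS peaks, and GENCODE M21 starts with 1000 bp either side as promoters. Overlap meant at least 1 bp (bedtools 2.31.1). Starts were read as counted from 0 and are printed from 1.

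Named regions followed a rule: 6 distal sites of ATAC KI-higher and 6 hotspots of ATAC B6-higher with the lowest ATAC p, 4 distal HELLS sites, 8 promoters of protein-coding genes and 4 unclassed regions with the largest fold change in each direction, listed genes that passed, and Prdm9, Hells and Spo11. Unclassed here meant distal, with no DMC1 or HELLS peak and no called ATAC region. The HELLS table has no peak score, so its sites were ranked by the summed counts of both HELLS libraries. Regions, classes and gene lists were chosen with earlier results of these data known.

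Motifs of 24 bases were learned from the middle of ATAC regions on autosomes with odd numbers, from 2913 KI-higher and 860 B6-higher windows. No region used held a promoter, and all B6-higher ones held a DMC1 peak of Hells heterozygotes. The motifs are thus not independent of these classes. The motifs were then looked up, on both strands, in the central 300 bp of H3K9ac regions on the other chromosomes. Named regions were also searched on the chromosomes used in learning. A match scored above 95% of 6000 windows of ATAC regions on the chromosomes used in learning. These regions were well short of a call and held no promoter, no HELLS peak and no DMC1 peak of Hells heterozygotes.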

Additional observations from a re-analysis of the deposited data

How the results depend on the processing

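No paired analysis was possible because the labels give these libraries no replicate numbers. Without B6 replicate 2 the count of higher regions was 26988 in place of 12826. Depth, from 15058790 to 30233934 counts a library, set the floor for regions at 0: 3 counts over the B6 group are 0.0385 CPM.

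Scaling by library size alone moved the median of all regions from −0.01 to −0.22. It gave 512 lower regions in place of 159 and 213 lower hotspots in place of 126. DESeq2 called 1408 regions and 1039 hotspots lower. RLE factors, factors from promoters, no filter, promoters of 500 bp, an ATAC threshold of 0.01 and the Spo11/Spo11 library kept every count of regions within 1.5 times. Where the overlap had to cover 50% of a region, the class of KI-higher ATAC sites kept 560 higher regions of 5281, hotspots 70 of 199, and distal regions without an ATAC region rose to 11241 from 6469, since fewer regions meet the wider overlap.

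Leaving out 1 library moved every count, and the cause was not tested. Higher regions ran from 0 to 26988 and lower ones from 0 to 23258. At KI-higher ATAC sites higher regions ran from 0 to 5507, at hotspots lower ones from 0 to 2258 and higher ones from 0 to 670, at distal regions without an ATAC region higher ones from 0 to 12868, and at promoters from 0 to 4749. The counts by DESeq2 without a KI library, chosen after seeing the data, were 9492 and 8584 higher and 157 and 272 lower. The median log2 fold change ran from 3.76 to 4.90 at KI-higher ATAC sites, from −1.63 to −0.30 at hotspots, from −2.40 to −0.86 at hotspots more open in B6 and from 0.13 to 0.48 at distal regions without an ATAC region. None of these 4 medians changed direction.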
